A study of Mus musculus with 39 samples.

Results

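The genes described here are 8 transcription factors and cofactors that specify or mark deep layer projection neurons of the cerebral cortex, namely Tbr1, Sox5, Foxp2, Tle4, Fezf2, Bcl11b, Bcl11a and Nfe2l3, taken by symbol from the 53379 genes of each deposited table, where all 8 were found. Neocortical cells of mice at embryonic day (E) 13 and E16 were sorted by fluorescence into small pools, and their RNA was sequenced. All embryos were MADM-7 GT/TG;Emx1-Cre, labelled as strain CD1 (a mixed background with C57BL/6J in the methods), so that Cre came from the Emx1 promoter of cortical progenitors and the sorted cells, yellow controls included, had all undergone MADM recombination on chromosome 7. Red (tdTomato) and green (GFP) cells carried both copies of chromosome 7 from 1 parent (uniparental disomy, UPD), and yellow cells carried a copy from each parent. The colours of a replicate number were taken as the same animal, since the study used single individuals as replicates. Cells with patUPD were red in replicates 1 to 3 and green in replicates 4 and up, and matUPD was in the other colour. This direction is the study's own and is not in the sample labels. None of the 8 genes lies on chromosome 7.

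Of 39 libraries, 36 had 40% or more uniquely aligned reads and were used, 5 of each colour from 6 embryos at E13 and 7 of each colour from 7 embryos at E16. They held 472924 to 5205788 counts in genes and 7858 to 13768 detected genes. A floor of 3 counts amounted to 0.521 to 5.77 CPM (counts scaled to a common library size). Cdkn1c, the maternally expressed gene of the study, was lower in patUPD than in matUPD cells in 5 of 5 embryos at E13 and 7 of 7 at E16, and the paternally expressed Ndn, Snrpn and Kcnq1ot1 were higher in patUPD cells in all 12, whereas Peg3 was not in E16 embryo 2 (24.4 against 29.0 CPM). Summed over 8 pan-neuronal genes, levels lay between 3090 and 13985 CPM in every library, and 8 radial glia genes summed to 215 to 3865 CPM, so genes of both neurons and progenitors were detected in every pool. Red blood cell genes summed to 0.212 to 52447 CPM at E13 and 0.447 to 6918 CPM at E16, and their part in the results below was not tested.

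Deep layer neurons are the first projection neurons made by radial glia and settle in layers 5 and 6. Layer 6 neurons that project to the thalamus depend on the T-box factor Tbr1 and also hold Sox5, Foxp2 and the corepressor Tle4, while layer 5 neurons that project to the brainstem and spinal cord depend on the zinc finger factor Fezf2 and, downstream of it, Bcl11b (Ctip2). Neurons of the upper layers are born later from the same progenitors and settle above them.

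The 5′ flanks of the member called lower at E16, Tbr1, and of the member with the highest summed estimate that was not called, Sox5, are shown first, as the 250 bases before the annotated start in the RefSeq table for GRCm38.p6, with the letters of a searched motif in capitals and motif strands given relative to the printed sequence. Of the 8 genes, 7 had an entry in that table.
Tbr1, chr2:61804203-61804452, plus strand: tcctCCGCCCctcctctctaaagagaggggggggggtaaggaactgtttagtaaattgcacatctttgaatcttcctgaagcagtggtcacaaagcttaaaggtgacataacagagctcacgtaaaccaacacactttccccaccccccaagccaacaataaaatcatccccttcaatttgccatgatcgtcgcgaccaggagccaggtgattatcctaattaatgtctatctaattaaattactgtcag
Sox5, chr6:143947107-143947356, minus strand: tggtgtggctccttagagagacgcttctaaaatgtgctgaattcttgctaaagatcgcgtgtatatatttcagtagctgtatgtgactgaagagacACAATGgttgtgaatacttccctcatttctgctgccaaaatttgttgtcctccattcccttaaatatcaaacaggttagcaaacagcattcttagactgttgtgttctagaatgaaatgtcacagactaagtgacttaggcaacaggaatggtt
The Tbr1 window lies inside the annotated Tbr1 gene and overlaps one of its exons, had a GC content of 45.2% and 5 CpG dinucleotides, and held 1 match among 8 motifs searched on both strands, a GC box (GGGCGG) on the opposite strand from 246 to 241 bases before the start. The Sox5 window lies in an intron of the annotated Sox5 gene, which spans chr6:143828425-144781977 on the minus strand. It is thus far from the 5′ end of that gene and need not flank the start of the mRNA counted here. It had a GC content of 39.6% and 3 CpG, and held the SOX core ACAATG on the printed strand from 154 to 149 bases before the RefSeq start. Over all 32851 promoter windows of this length, the median GC content was 52.4% with 6 CpG, 32.7% held a GC box and 10.7% held the SOX core.

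Per kilobase of merged exons, Tbr1 and Bcl11a were the most abundant members over the 36 libraries, with a median of 49.3 and 33.3 CPM per kb and a mean of 58.2 ± 29.8 and 35.0 ± 10.7 (SD). Sox5, Fezf2 and Bcl11b followed with medians of 15.4, 14.7 and 11.2 CPM per kb, and these 3 neighbours did not differ beyond their spread over libraries. Tle4 with 6.36, Foxp2 with 3.27 and Nfe2l3 with 0.619 CPM per kb were lowest. Bcl11a was the steadiest, with a coefficient of variation of its CPM of 30.6%, against 51.2% for Tbr1, 66.1% to 75.1% for Tle4, Sox5, Bcl11b and Foxp2, 92.9% for Fezf2 and 149% for Nfe2l3. The plot of CPM by library shows the same order of scatter, narrow for Bcl11a and Tbr1 and wide for the members at lower levels.

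**Figure D1:**
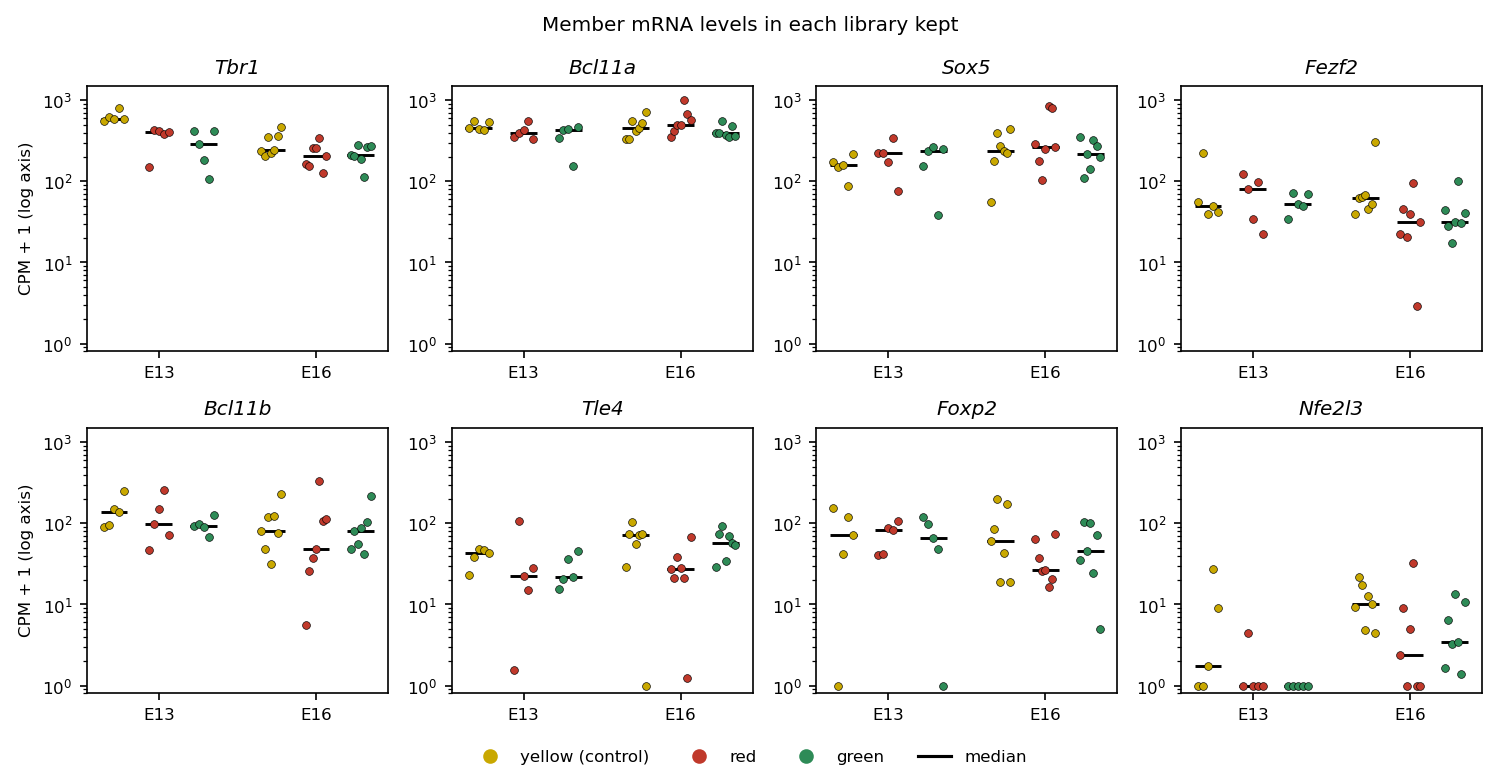
CPM of the 8 genes in each of the 36 libraries, plotted as CPM + 1 on a log axis by age (x axis) and colour, with a line at the group median. Tbr1 in the 5 yellow libraries at E13 sits above all 7 at E16, whereas the groups of the other genes overlap, and Nfe2l3 is at 0 in 11 of 15 libraries at E13.

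The first comparison asked how the members' mRNA changed between E13, when deep layer neurons are being made, and E16, when upper layer neurons are. Tbr1, the T-box factor that layer 6 neurons require, fell, and it was the single member past the threshold in any comparison of the main edgeR fits. In yellow cells its level was 558, 618, 592, 803 and 591 CPM in E13 replicates 1, 2, 4, 5 and 6, and ran from 205 through a median of 244 to 461 CPM over 7 libraries at E16. All 5 yellow libraries at E13 lay above all 7 at E16. In red cells the E13 values were 148, 430, 421, 387 and 402 CPM (replicates 1, 2, 3, 4 and 6), and the E16 values spanned 126 to 344 with a median of 202. In green cells they were 419, 286, 185, 107 and 414 CPM at E13 and 112 to 281 with a median of 211 at E16. Red and green libraries of the ages overlapped, with red replicate 1 and green replicates 3 and 4 at E13 as low as libraries at E16.

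With the colours of an embryo summed, Tbr1 ranged from 356 to 803 CPM in 6 embryos at E13 and from 183 to 339 in 7 at E16, without overlap. In the edgeR quasi-likelihood test across 13776 genes its log2 fold change was -0.86 ± 0.23 (SE, 95% confidence interval -1.34 to -0.37, adjusted p = 0.0454), a level of 55.3% of that at E13. In this comparison 3.8% of all genes tested passed the threshold, 1.88% of all genes tested passed it as lower, and 1.64% were lower at E16 without overlap. By colour the log2 change was -1.09 ± 0.29 in yellow (adjusted p = 0.181), -0.76 ± 0.36 in red (adjusted p = 0.437) and -0.36 ± 0.36 in green libraries (adjusted p = 0.723), where 0.149%, 0.322% and 1.39% of all genes passed and none of the members did, although DESeq2 called Tbr1 in yellow libraries (-1.10, adjusted p = 0.0269). Lower and non-overlapping levels in yellow libraries were found for 0.703% of the genes tested there. The summed call was lost when any 1 of 12 of the 13 embryos was left out (adjusted p 0.0530 to 0.0835), E16 replicate 7 being the exception (adjusted p = 0.0112), and the change came down to -0.64 without E13 embryo 5, which was represented by its yellow library alone. In such pools, fewer Tbr1 cells and less Tbr1 mRNA per cell cannot be told apart.

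The other genes of the layer 6 programme were not called by this test. Sox5, a SOX factor that times the production of deep layer neurons, was 171, 151, 160, 87.5 and 217 CPM in E13 yellow replicates 1, 2, 4, 5 and 6 and 54.4 to 446 (median 236) at E16. Its summed level was 87.5 to 204 CPM in E13 embryos and 148 to 449 in E16 embryos, which overlapped. The summed log2 change was 0.77 ± 0.28 (95% confidence interval 0.18 to 1.35, adjusted p = 0.126). The highest embryos were E16 replicates 5 and 6, at 449 and 418 CPM, whose red libraries at 859 and 791 CPM were among those of low complexity (8803 and 9210 genes detected) that the study did not use. With the libraries the study used the change was 0.36, with replicates 1 to 3 alone it was -0.02, and with replicates 4 and up it was 1.28.

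Foxp2, a forkhead factor of layer 6 neurons, was 154, 0, 41.1, 118 and 70.1 CPM in E13 yellow replicates 1, 2, 4, 5 and 6 and 17.8 to 199 (median 60.1) at E16. It was at 0 in yellow replicate 2 and green replicate 6 at E13, libraries of the same age being as high as 154 CPM. Its summed log2 change was -0.55 ± 0.39 (adjusted p = 0.482). Tle4, a Groucho corepressor of corticothalamic neurons, was 22.2, 37.2, 46.9, 45.9 and 42.1 CPM in the same E13 yellow libraries and 0 to 104 (median 70.5) at E16. In green libraries it was 14.4, 19.4, 35.2, 20.8 and 44.4 CPM at E13 (replicates 1, 2, 3, 4 and 6) and 28.3 to 92.7 (median 56.4) at E16. There its log2 change, 1.13 ± 0.56 with an unadjusted p of 0.0594 (edgeR quasi-likelihood test, adjusted p = 0.346), was the highest of the members tested in that colour, against -0.28 ± 1.08 in red libraries, and the libraries overlapped in every colour.

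The layer 5 pair showed no change past the threshold. Fezf2, the zinc finger factor that directs subcerebral projection neurons, was 55.3, 223, 38.5, 48.3 and 40.8 CPM in E13 yellow replicates 1, 2, 4, 5 and 6 and 38.1 to 304 (median 60.9) at E16. A single library stood far above the rest at each age, yellow replicate 2 at E13 and yellow replicate 7 at E16, which had 9655 and 7858 genes detected. Its summed log2 change was -0.07 ± 0.44 (adjusted p = 0.953). Bcl11b, the zinc finger factor known as Ctip2, was 88.2, 94.1, 151, 139 and 251 CPM in E13 yellow libraries and 30.3 to 227 (median 79.3) at E16, with a summed change of -0.30 ± 0.40 (adjusted p = 0.741). In red libraries it spanned 4.62 to 334 CPM at E16, a range that enclosed the 46.2 to 257 CPM at E13.

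Bcl11a, a zinc finger paralogue of Bcl11b used in neurons of all layers, held its level more closely than the others. It was 457, 557, 446, 433 and 541 CPM in E13 yellow replicates 1, 2, 4, 5 and 6 and 329 to 725 (median 450) at E16, and its summed level was 386 to 460 CPM at E13 and 353 to 567 at E16. The E16 embryos enclosed the whole E13 range, and the summed log2 change was 0.24 ± 0.16 (95% confidence interval -0.10 to 0.57, adjusted p = 0.456). Its 2 antisense neighbours held 10 counts in all libraries together, although reads on either strand cannot be told apart in these tables. Reads on a member and a neighbour are ambiguous and enter neither count. The counts by strand held 59.0% and 54.0% of the Bcl11a count used, against 51.3% and 48.7% for Tbr1, which has no overlapping gene. Some reads of Bcl11a were therefore left out.

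Nfe2l3, a cap'n'collar bZIP factor, was near the limit of these libraries. Of 15 libraries at E13, 11 held no count of it and 12 were at or under 3 counts, against 3 and 6 of 21 libraries at E16. At E13 it was above that floor in yellow replicates 5 and 6 (26.2 and 8.15 CPM) and red replicate 2 (3.45 CPM). At E16 all 7 yellow libraries were above it, at 3.43 to 21.0 CPM. The log2 change was 0.59 ± 1.41 in yellow and 3.12 ± 2.19 in red libraries (adjusted p = 0.999 and 0.689), and in green libraries it was under the filter on low counts.

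**Figure D2:**
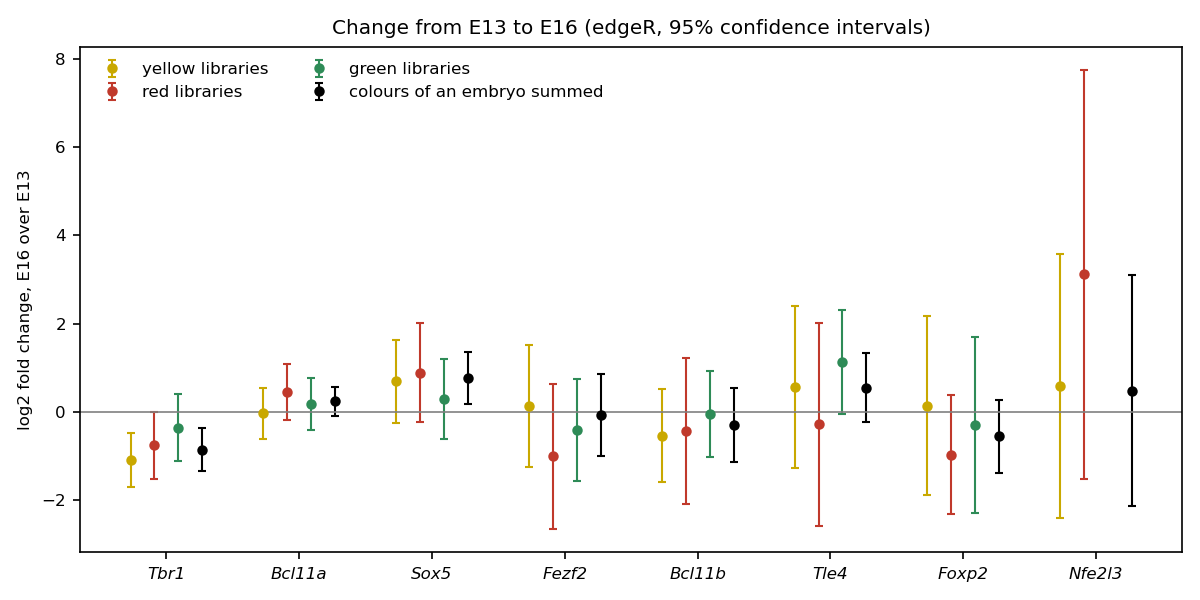
Log2 fold change from E13 to E16 (y axis) for each gene (x axis), as points with 95% confidence intervals from edgeR, in yellow, red and green libraries and with the colours of an embryo summed. The summed interval of Tbr1, -1.34 to -0.37, lies below 0 together with its yellow one, the summed interval of Sox5 lies above 0 without passing the adjusted threshold, and all other intervals include 0.

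Read against other lists, the change of Tbr1 stood beside larger changes in upper layer and progenitor genes, in the edgeR fit with the colours summed. Over the 8 members the median log2 change was 0.08, with 0 up and 1 down, and over all genes tested it was 0.03. Of 15 other deep layer genes tested, 2 rose (Ldb2, a LIM domain binding protein, by 2.95, and Crym, a thyroid hormone binding protein, by 2.11), 1 fell (the ETS factor Etv1, by 2.20) and the median was 0.15. Of 13 upper layer genes, 7 rose and 0 fell (median 1.37), among them Pou3f2 by 2.81, Mef2c by 2.23 and Unc5d by 2.30. Of 8 radial glia genes, 5 fell (median -1.82), with Nes at -4.30, Vim at -1.54, Pax6 at -1.33 and Hes1 at -2.09, and of 8 pan-neuronal genes, 5 rose (median 0.91), with Mapt at 1.64, Neurod6 at 1.21, Snap25 at 1.46 and Dcx at 0.85. Of 12 paralogues of the members, 2 fell (Fezf1 and Sox13) and 0 rose. The SOX factor Sox11, a regulator of the members, rose by 0.59. Among lists for other cell types, 1 of 5 intermediate progenitor genes (Gadd45g), 1 of 4 subplate (Nxph4), 1 of 5 red blood cell (Hbb-y), 1 of 4 mural and meningeal (Lum) and 1 of 2 oligodendrocyte lineage genes (Pdgfra) fell, and 0 of 5 interneuron, 0 of 5 Cajal-Retzius, 0 of 3 microglia and 0 of 1 endothelial genes were called in either direction. The summed level of the 6 intermediate progenitor genes moved more than these calls, from a median of 938 to 304 CPM in yellow libraries, from 953 or more to 818 or less in red and from 1089 or more to 783 or less in green, the last 2 colours without overlap. The Cajal-Retzius sum had a median of 411 CPM at E13 and 161 at E16 in yellow, 72.4 and 15.5 in red and 108 and 96.7 in green libraries. The interneuron sum, without a called gene, had medians of 111 and 1.52 CPM in yellow, 34.3 and 0.555 in red and 31.6 and 6.59 in green libraries. For mural and meningeal genes they were 27.3 and 3.41, 41.2 and 6.385, and 26.0 and 3.07 CPM. Libraries of the ages overlapped in both sums, except for mural and meningeal genes in green. The radial glia sum overlapped between the ages in each colour. Its medians at E13 and E16 were 1198 and 1101 CPM in yellow, 1852 and 1528 in red and 2570 and 2026 in green libraries. The part of these lists in the change of Tbr1 was not tested.

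Because the pan-neuronal genes rose, the members were also expressed relative to them. This scaling lowered the median of all genes in the summed fit by 0.78 on the log2 scale, and relative to the median of all genes Tbr1 then changed by -0.80 (-0.89 without it), Foxp2 by -0.58, Sox5 by 0.67 and Bcl11a by 0.20. Before subtraction of that median, Tbr1 was at -1.55 (edgeR adjusted p = 0.000594) and Foxp2 at -1.33 (adjusted p = 0.0259), both past the threshold. Sox5 was at -0.08 and Bcl11a at -0.54, against 0.77 and 0.24 without the scaling. The share of all genes past the threshold under this scaling was not recorded. Subtraction of that median takes most of the scaling out again. The same direction relative to it under both scalings was therefore fixed in advance.

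The second comparison set the singly coloured cells, which carry UPD in either direction, against the yellow cells of the same embryo. Tbr1 was lower in red and green cells than in yellow cells of the same animal at both ages, although the difference did not pass the adjusted threshold at either. At E13 all 10 red and green libraries, at 107 to 430 CPM, lay below all 5 yellow libraries, at 558 to 803 CPM, as did 0.382% of all genes tested. In the 4 embryos with all colours the mean of red and green was below yellow by 1.16, 0.82, 1.54 and 0.53 on the log2 scale in replicates 1, 2, 4 and 6. At E16 it was below yellow in 7 of 7 embryos, by 0.03 to 0.99 with a mean of -0.46 ± 0.37 (SD). Of 10126 genes tested at both ages, 0.247% were lower in every embryo of both, and 9.13% at E13 and 1.11% at E16 taken alone.

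The edgeR quasi-likelihood test with the embryo as a block gave a log2 difference for Tbr1 of -0.92 ± 0.38 at E13 (95% confidence interval -1.75 to -0.09, unadjusted p = 0.0327, adjusted p = 0.722) and -0.42 ± 0.28 at E16 (unadjusted p = 0.143, adjusted p = 1). At neither age did any gene pass, 0 of 11786 at E13 and 0 of 10794 at E16, with 801 and 258 genes at an unadjusted p under 0.05 (6.8% and 2.39%). DESeq2 called 562 and 73 genes, none of them a member. The difference was seen in either direction of disomy at E13, where patUPD minus yellow averaged -1.35 and matUPD minus yellow -0.67, each lower in 4 of 4 embryos. At E16 patUPD cells were lower in 7 of 7 embryos (-0.57) and matUPD cells in 4 of 7 (-0.35). The age difference of this contrast, 0.50 ± 0.47 (edgeR adjusted p = 1), did not pass, and 0.00872% of all genes did.

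Pan-neuronal genes moved in the same direction at E13. Their sum was 5957 to 7236 CPM in yellow and 3090 to 5085 CPM in red and green libraries, lower in 4 of 4 embryos by a mean of -0.61 on the log2 scale, while radial glia genes were higher in 4 of 4, by 0.95, and intermediate progenitor genes in 3 of 4, by 0.86. Cajal-Retzius genes, of which Reln is the most abundant and whose cells also express Tbr1, were lower in 4 of 4, by a mean of -1.73 ± 1.38 (SD). Their sum was 198 to 501 CPM (median 411) in yellow, 34.4 to 566 (72.4) in red and 18.4 to 282 (108) in green libraries. Microglia and red blood cell genes were also lower in 4 of 4, by means of -4.14 ± 2.22 and -2.23 ± 2.38 (SD), the microglia sum being at most 79.1 CPM in any library at E13. Upper layer genes were higher in 4 of 4, by 0.25 ± 0.04. Other deep layer, subplate, interneuron and mural and meningeal genes were each lower in 2 of 4. With libraries scaled to the pan-neuronal genes, the median of all genes shifted by 0.59 and the E13 difference of Tbr1 became -0.29. Relative to that median it was -0.78, against -0.81 without the scaling, since the subtraction takes most of the scaling out again. At E16 the pan-neuronal and Cajal-Retzius sums were each lower in 4 of 7 embryos (means -0.05 and -1.53), and the radial glia and intermediate progenitor sums higher in 6 of 7 (0.93 and 0.47). The share of each cell type in a pool was not measured, and its part in the difference of Tbr1 was not tested.

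Bcl11a was also lower in red and green than in yellow cells in 4 of 4 embryos at E13, with a mean of -0.48 ± 0.09 (SD), the smallest scatter of the members, and in 2 of 7 at E16 (0.04 ± 0.35). Its edgeR estimates were -0.41 ± 0.30 and 0.05 ± 0.22, with adjusted p = 0.855 and 1. Fezf2 was lower in 6 of 7 embryos at E16, by -1.24 ± 0.58 (edgeR unadjusted p = 0.0460, adjusted p = 1), and in 2 of 4 at E13 (-0.12 ± 0.65). The E16 estimate was -0.85 without replicate 7, whose yellow library held the 304 CPM named above, and -0.69 with the libraries the study used. Tle4 was lower in 6 of 7 embryos at E16 and 3 of 4 at E13, with differences from -3.41 to 6.62 at E16 because single libraries were at or near 0. Nfe2l3 was lower in 6 of 7 embryos at E16 (-2.10 ± 1.34, edgeR adjusted p = 1) and was not tested at E13. Bcl11b, Foxp2 and Sox5 went in both directions among embryos of each age. The plot of differences within embryos sets these side by side.

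**Figure D3:**
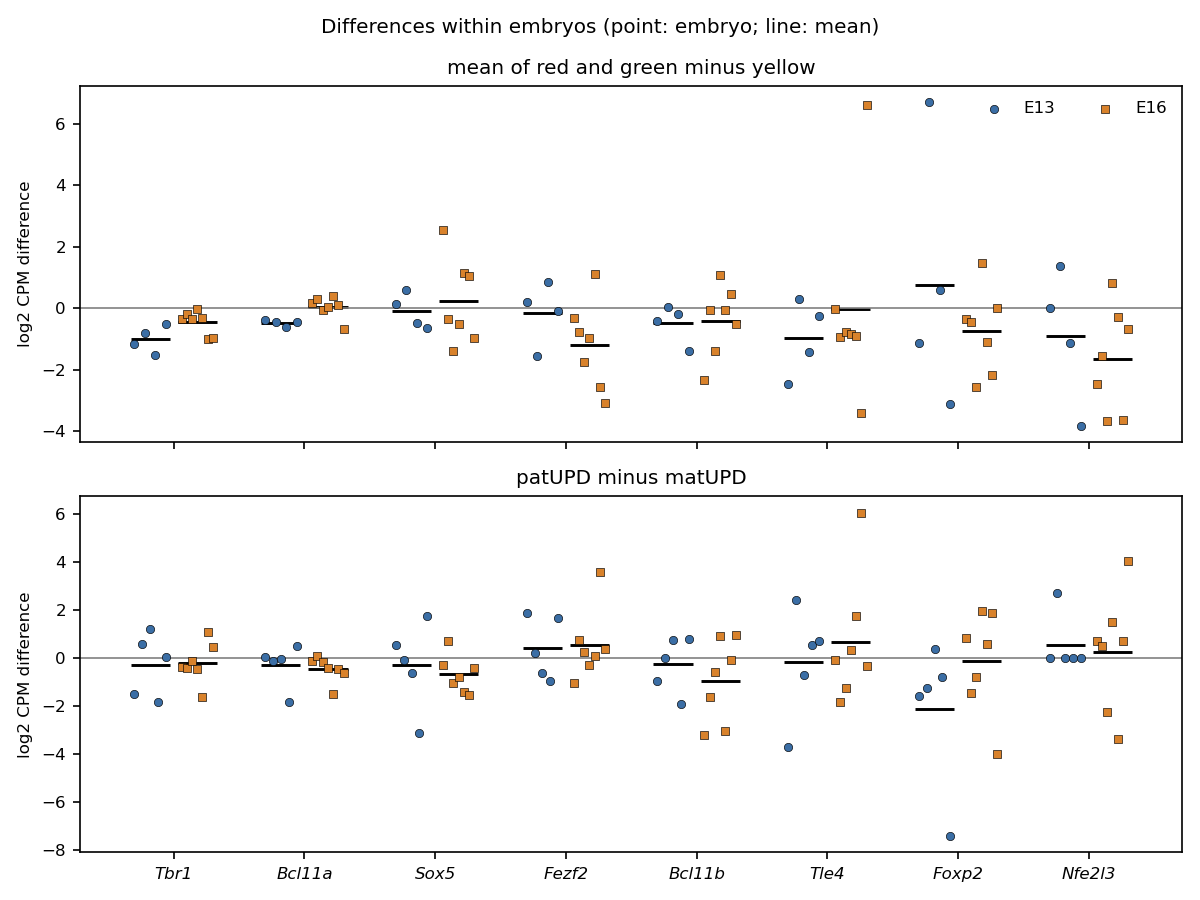
Differences in log2 CPM within each embryo (y axis) for each gene (x axis), as the mean of red and green minus yellow (top) and patUPD minus matUPD (bottom), with 1 point per embryo (circles E13, squares E16) and a line at the mean. In the top panel Tbr1 lies below 0 in 4 of 4 embryos at E13 and 7 of 7 at E16, and in the bottom panel Bcl11a lies below 0 in 6 of 7 at E16.

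The third comparison asked whether the parental origin of chromosome 7 altered the members. No member passed the threshold at E13 or E16, where 0% and 0.0278% of all genes did. The 3 genes called at E16 included Snrpn and Ndn, imprinted genes of chromosome 7, at log2 differences of 4.43 and 4.12 (edgeR adjusted p = 0.000123 and 0.0194). At E13 edgeR called 0 of 11786 genes, with 264 at an unadjusted p under 0.05, and DESeq2 called 202 without a member among them. The estimate for Tbr1, patUPD minus matUPD, was -0.24 ± 0.43 at E13 (95% confidence interval -1.17 to 0.68) and -0.25 ± 0.33 at E16 (-0.93 to 0.44).

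Bcl11a was lower in patUPD than in matUPD cells in 6 of 7 embryos at E16, with patUPD libraries at 351 to 493 CPM (median 371), and in 3 of 5 at E13. The E16 estimate was -0.45 ± 0.26 (edgeR unadjusted p = 0.0916, adjusted p = 1), and it came to -0.27 without replicate 5 and -0.28 with the libraries the study used. Sox5 was likewise lower in 6 of 7 embryos at E16, by -0.72 ± 0.45 (edgeR unadjusted p = 0.127, adjusted p = 1), and by -0.23 with the libraries the study used. Red replicates 5 and 6, matUPD libraries of few detected genes, held the highest matUPD values of both genes at E16, Bcl11a at 999 and 669 CPM and Sox5 at 859 and 791. Fezf2 (0.34 ± 0.67), Tle4 (0.12 ± 1.00), Foxp2 (-0.05 ± 0.83) and Bcl11b (-0.74 ± 0.64) had intervals wide enough to hold a change of over 1 on the log2 scale in at least 1 direction. No age difference of the disomy contrast passed for a member, with 0 of 11472 genes called by edgeR and 291 at an unadjusted p under 0.05.

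Across the 36 libraries, after the mean of each age and colour was taken off, the members did not vary as 1 group. Bcl11a was the centre of the closest pairs, with Pearson correlations of log2 CPM of 0.75 with Sox5, 0.63 with Bcl11b and 0.60 with Tbr1, and Tbr1 and Bcl11b stood at 0.46. Fezf2, Foxp2, Tle4 and Nfe2l3 had correlations between -0.38 (Fezf2 with Foxp2) and 0.28 with the other members. Of 28 pairs, 17 were positive and the median was 0.13. With the mean log2 CPM of the pan-neuronal genes, Bcl11a and Sox5 had correlations of 0.52 and 0.47. With that of the radial glia genes, Tle4 and Foxp2 had 0.48 and 0.43, while Bcl11a, Bcl11b and Tbr1 had -0.38, -0.33 and -0.31. Bcl11b had 0.44 with the intermediate progenitor genes. Over the 32 libraries the study used, an alternative added after the data were seen, Bcl11a stood at 0.67 with Sox5, 0.46 with Bcl11b and 0.62 with Tbr1, whereas Tbr1 with Fezf2 went from 0.11 to -0.40, Tle4 with Bcl11a from -0.18 to 0.27 and Fezf2 with Sox5 from 0.23 to 0.48. In those 32 libraries Tle4 and Foxp2 stood at -0.09 and 0.17 with the radial glia genes, and Bcl11b at 0.66 with the intermediate progenitor genes. Bcl11a and Sox5 stood at 0.54 and 0.42 with the pan-neuronal genes. The libraries share embryos, and these values describe the libraries.

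**Figure D4:**
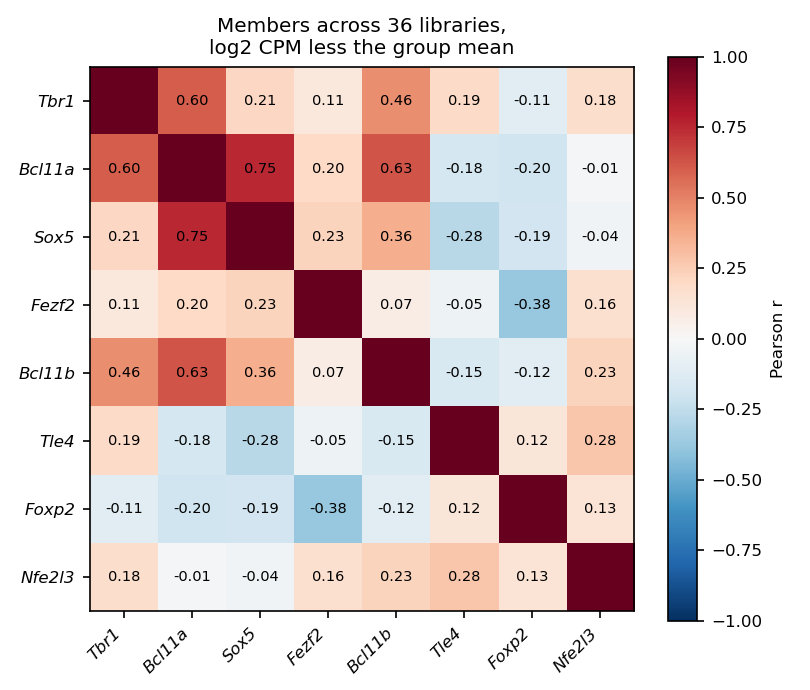
Pearson correlation of log2 CPM between each pair of the 8 genes (both axes), over 36 libraries after subtraction of the mean of each age and colour. Colour runs from -1 (blue) to 1 (red), and the highest value, 0.75, is that of Sox5 with Bcl11a.

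Among 5505 genes with a mean count of 100 or more, those closest to each member by the same measure were Prr36 (0.76), Zswim8 and Nadk (both 0.71) for Tbr1, Tubb4b (0.77), Bcl11a and Acaca (0.70) for Sox5, Tubb4b (0.81), Nfib (0.80) and Add1 (0.79) for Bcl11a, and Mbd3 (0.76), Elavl3 (0.75) and Csnk1e (0.73) for Bcl11b. For the members at lower levels they were Celf1 (0.79), Plagl1 (0.74) and Abcf3 (0.72) for Fezf2, Ddx46 (0.82), Pcdh8 (0.75) and Tmem135 (0.74) for Foxp2, Fsd1l (0.85), Prim2 (0.81) and Armcx2 (0.79) for Tle4, and Sod1 (0.58), Fbxw5 (0.56) and Commd4 (0.55) for Nfe2l3. Bcl11a was the one member among the closest 3 genes of another, Sox5, and that pair also shared Tubb4b, a beta tubulin. Each value is among the highest 3 of 5505, and what the highest of so many reach for unrelated genes was not computed. Nfe2l3 was at or under 3 counts in 18 of the 36 libraries, so its values rest on few counts.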

How the data were processed

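Cells were sorted by colour from dissected neocortex of single embryos, and libraries were made with the Smart-Seq2 protocol, without strand information or molecular identifiers. The authors merged technical replicates with SAMtools 1.8, converted reads with bedtools 2.26.0, aligned them with STAR 2.5.0c to GRCm38 with Gencode M16, kept reads with 1 alignment, and deposited whole-number counts per gene for each library, not normalised. Counts summed over both strands were used, since either strand alone gave close to equal shares (medians 54.6% and 53.0%). Counts without a feature (12.8% to 44.1%) and ambiguous ones (3.30% to 18.5%) stayed out of library sizes. Symbols, coordinates and exon lengths came from Gencode M21 for 53274 of 53379 genes.

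At E13, replicate 3 in yellow and replicate 5 in red and in green, with 18.8% to 36.1% uniquely aligned reads, were left out. The quasi-likelihood test of edgeR 4.0.16 (R 4.3.3), with TMM scaling, was run on genes with a mean count of 10 or more, and a Benjamini-Hochberg adjusted p under 0.05 over all genes tested was called. CPM was computed on TMM library sizes. Age was compared by colour and on counts summed per embryo without a block, since the embryos differ. Colour and disomy were compared with the embryo, taken from the replicate number, as a block. The study's model held a sample term, but its sample number covered several replicate numbers and was tried as an alternative. Deviations from group means correlated by a mean of 0.069 (13 pairs, E13) and 0.044 (21 pairs, E16) between libraries of 1 replicate number. Between different numbers the means were -0.015 and -0.003. The E16 pairs of 1 number ran from -0.060 to 0.142, so the pairing left little trace in these data. Floors of 3 counts and counting error take no account of PCR copies. Alternatives were DESeq2 1.42.0, other scalings, no filter, other sets of libraries, each embryo left out and no block.

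The 8 members and all gene lists were chosen with earlier results of these data known. The text names all members, at most 4 called genes per other list with the smallest p (1 gene is not reported here), the 3 genes most correlated with each member, and the imprinted genes that check the disomy direction. The scripts were tested on simulated data without an embryo effect and with changes larger than most of those of the members. Recovery of smaller changes was not tested.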

Additional observations from a re-analysis of the deposited data

Results flagged for a closer look

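In 10 of 47 gene and group combinations of 5 or 7 libraries, a single library stood apart from the others by Dixon's criterion. Its chance rate of about 1 in 20 holds for normally distributed values. CPM was used without a log, so the number flagged cannot be set strictly against that rate. All flags but Tbr1 in E13 red replicate 1 were at the highest library. Tbr1 in E13 red replicate 1 was the lowest of its group (148 CPM, the next 387), and Tbr1 in E13 yellow replicate 5 the highest (803 CPM, the next 618). Fezf2 was high in E13 yellow replicate 2 (223 CPM, the next 55.3), E16 yellow replicate 7 (304 CPM, the next 67.4) and E16 green replicate 5 (100.45 CPM, the next 44.0). Bcl11b was high in E16 red replicate 5 (334 CPM, the next 114) and E16 green replicate 7 (219 CPM, the next 102). Tle4 was high in E13 red replicate 2 (105 CPM, the next 27.4). Nfe2l3 was high in E13 red replicate 2 (3.45 CPM, the others 0) and E16 red replicate 5 (31.9 CPM, the next 8.05). E13 yellow replicate 2, E16 yellow replicate 7 and E16 red replicate 5 were among the libraries with few detected genes (9655, 7858 and 8803), and what set the values apart was not tested.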

How the results depend on the processing

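Of 1394 values of members under alternatives, 1241 kept direction and side of the threshold, and 129 turned sign without a call in either fit. Tbr1 with colours summed, -0.86, was past the threshold under DESeq2 (-0.89, adjusted p = 0.00469) and with the libraries the study used (-0.89, adjusted p = 0.0321), but not without a filter (-0.85, adjusted p = 0.0713), in replicates 1 to 3 (-0.75, adjusted p = 0.212) or in replicates 4 and up (-0.99, adjusted p = 0.310). Tbr1 in yellow libraries passed with the libraries the study used (-1.23, adjusted p = 0.00893), without E16 replicate 7 (-1.22, adjusted p = 0.0405) and under DESeq2 (adjusted p = 0.0269). Scaling to pan-neuronal genes shifted the median of all genes by -0.97 in red and -1.02 in green libraries. It took Tbr1 past the threshold in both (-1.79 and -1.33). Bcl11a in green libraries went to -0.83 (edgeR adjusted p = 0.0421) against 0.19 without the scaling, although relative to that median it was 0.17 against 0.16. The share of all genes past the threshold under this scaling was not recorded. DESeq2 called both age differences of Nfe2l3, a gene of few counts. The causes were not tested.

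The counts of genes called moved more. In yellow libraries 17 became 146 with the libraries the study used, 198 under DESeq2, 55 without a filter and 0 in either set of replicates (1 to 31 with an embryo left out). In red libraries 36 became 5 with all 39 libraries, 189 with those the study used, 312 under DESeq2, 0 in replicates 4 and up and 89 with all colours in 1 fit (5 to 78). In green libraries 155 became 36 with all 39 libraries, 691 under DESeq2, 53 in replicates 1 to 3 and 13 in replicates 4 and up (71 to 203). With colours summed 524 became 1271 under DESeq2, 131 in replicates 1 to 3 and 38 in replicates 4 and up (297 to 570). For singly coloured against yellow cells at E13, 0 became 6 with all 39 libraries, 7 with those the study used, 562 under DESeq2, 26 without a filter, 10 with no replicate block and 23 with the study's sample number as block (0 to 5), and at E16 73 under DESeq2 and 3 without a filter (0 to 0). For disomy, 0 at E13 became 202 under DESeq2 and 3 without a filter (0 to 1), and 3 at E16 became 61 and 11 (1 to 3). The age difference of singly coloured cells had 1 call, 223 under DESeq2, 25 without a filter and 0 with no replicate block (0 to 1), and that of disomy 0, 207 under DESeq2 and 4 without a filter (0 to 0). Removing the embryo block changed no call of a member. Nfe2l3 was at or under 3 counts in 12 of 15 libraries at E13.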

Other observations

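The 3 libraries left out for few uniquely aligned reads differed from one another in the members. E13 red replicate 5 held 0 counts of Tbr1, Sox5 and Bcl11b among 1902527 counts in genes, and E13 green replicate 5 held 0 counts of Tbr1, Sox5 and Fezf2. E13 yellow replicate 3 held 1090 counts of Tbr1, or 929 CPM of its total, above the 558 to 803 CPM of the yellow libraries kept at that age.

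Summed over the 8 members, CPM was lower in patUPD than in matUPD cells in 7 of 7 embryos at E16 and in 2 of 5 at E13. The E16 mean was -0.44 ± 0.44 (SD) on the log2 scale. Of single genes 0.426% were lower in every embryo at E16, but sums of other gene sets of this size were not computed. That share is therefore no reference for the sum. The sum is made up mainly of Bcl11a, Tbr1 and Sox5, and without embryos 5 and 6, whose red libraries had few detected genes, it was lower in 5 of 5 embryos by -0.25 ± 0.09, a check added after the data were seen. Over all 7 embryos at E16, subplate genes were lower in patUPD cells in 6. Upper layer genes (mean -0.30), regulators of the members (-0.37) and pan-neuronal genes (-0.18) were lower in 5 of 7. Other deep layer and radial glia genes were lower in 4 of 7, and paralogues and intermediate progenitor genes in 3 of 7. Other deep layer genes, 17 in all and summed, were lower in singly coloured than in yellow cells in 7 of 7 embryos at E16, by -0.34 ± 0.21. At E13 they were lower in 2 of 4. Of single genes 1.11% were lower in every embryo at E16, which is no reference for a sum. Radial glia and intermediate progenitor genes were each higher in 6 of 7 embryos there, and their part was not tested. In the green libraries Hs3st4, a sulfotransferase of layer 6 neurons, was 9.21 higher on the log2 scale at E16 than at E13 (edgeR quasi-likelihood test, adjusted p = 0.000599), the single gene of that list called by colour. The whole list summed to at most 640 CPM in green libraries at E16. A difference of this size therefore puts Hs3st4 near 0 at E13, where the size of the ratio is uncertain.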
